A study of Mus musculus with 8 samples.

Results

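The chamber myocardium marker genes followed here are *Nppa*, *Nppb*, *Smpx*, *Cited1* and *Hopx*, 5 of the 49315 genes counted in embryonic mouse hearts. They were chosen by name, as markers of chamber differentiation, with earlier results of these data known. All 5 had enough counts to be tested, among 17163 genes tested in all. RNA sequencing measured poly-A selected RNA of whole hearts collected at embryonic day 9.5 from wild-type and Tbx20EH1Mut embryos. Each genotype had 4 libraries of 3 pooled hearts each, and between 33359322 and 49523086 reads per library were counted on genes. Wild-type embryos carried unaltered *Tbx20*. Tbx20EH1Mut embryos were homozygous for an allele in which 2 amino acids of the engrailed homology 1 (EH1) domain of Tbx20, through which it recruits TLE co-repressors, were exchanged. The allele was made with CRISPR/Cas9, passed on by founder males bred with C57BL/6J mice, and is not restricted to a cell type or stage. No other allele and no treatment was given for either group. The sex of the pooled embryos was not given, and all of the comparisons below set the 4 Tbx20EH1Mut libraries against the 4 wild-type libraries.

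The heart tube first consists of primary myocardium, from which the working muscle of the atria and ventricles differentiates along the outer curvature. This chamber myocardium switches on natriuretic peptide genes and fast-conducting gap junction genes, under T-box, NKX2-5, GATA, MEF2 and SRF factors, while Tbx2 and Tbx3 keep these genes silent in the atrioventricular canal and outflow tract. *Nppa* and *Nppb* encode the hormones atrial and B-type natriuretic peptide, *Smpx* a small protein of the muscle cytoskeleton, *Cited1* a co-activator that binds CBP and p300 rather than DNA, and *Hopx* a homeodomain protein that does not bind DNA and modulates SRF. All 5 genes are protein coding and their starts and ends in the count tables are those of the GRCm38 annotation. *Nppb* (ENSMUSG00000029019, chr4:147985788-147987205, plus strand) and *Nppa* (ENSMUSG00000041616, chr4:148000722-148002079, plus strand) are neighbours, 13516 bases apart. *Smpx* (ENSMUSG00000041476, chrX:157698910-157752591, plus strand) and *Cited1* (ENSMUSG00000051159, chrX:102247381-102252181, minus strand) are X-linked, and *Hopx* (ENSMUSG00000059325, chr5:77086988-77115121, minus strand) lies on chromosome 5.

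The promoters of the 4 markers with the largest fold changes between the genotypes, chosen after their values were seen, are printed here, as 300 bases of RefSeq's annotation of GRCm38.p6 running 5′ to 3′ along the gene, from 250 bases before to 50 bases after the start site. Capitals mark every match to one of 7 motifs, on either strand. The motifs searched were GGTGTNA for T-box factors, TNAAGTG for NKX2-5, AGATAA for GATA factors, CATTCC for TEAD factors, TATAAA, the CArG box that SRF binds and the MEF2 box. The windows are chr4:148000472-148000771 (plus strand) for *Nppa*, chr4:147985650-147985949 (plus strand) for *Nppb*, chrX:102252132-102252431 (minus strand) for *Cited1* and chr5:77115074-77115373 (minus strand) for *Hopx*.
Nppa: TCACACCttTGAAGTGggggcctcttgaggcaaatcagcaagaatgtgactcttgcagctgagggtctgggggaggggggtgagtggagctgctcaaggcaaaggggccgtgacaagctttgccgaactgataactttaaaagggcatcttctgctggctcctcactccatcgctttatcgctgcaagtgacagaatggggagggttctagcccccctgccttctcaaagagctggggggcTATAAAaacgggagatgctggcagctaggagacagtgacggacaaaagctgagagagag
Nppb: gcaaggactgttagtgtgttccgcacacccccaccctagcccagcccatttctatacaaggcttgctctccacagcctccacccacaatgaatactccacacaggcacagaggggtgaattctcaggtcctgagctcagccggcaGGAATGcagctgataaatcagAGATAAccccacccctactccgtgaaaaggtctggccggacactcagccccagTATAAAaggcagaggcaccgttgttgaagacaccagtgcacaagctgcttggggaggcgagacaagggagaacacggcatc
Cited1: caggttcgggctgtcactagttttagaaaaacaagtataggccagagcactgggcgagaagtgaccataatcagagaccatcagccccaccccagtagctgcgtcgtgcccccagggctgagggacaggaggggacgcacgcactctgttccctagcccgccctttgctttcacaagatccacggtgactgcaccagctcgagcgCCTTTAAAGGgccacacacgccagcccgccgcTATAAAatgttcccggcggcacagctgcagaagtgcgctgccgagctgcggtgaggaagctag
Hopx: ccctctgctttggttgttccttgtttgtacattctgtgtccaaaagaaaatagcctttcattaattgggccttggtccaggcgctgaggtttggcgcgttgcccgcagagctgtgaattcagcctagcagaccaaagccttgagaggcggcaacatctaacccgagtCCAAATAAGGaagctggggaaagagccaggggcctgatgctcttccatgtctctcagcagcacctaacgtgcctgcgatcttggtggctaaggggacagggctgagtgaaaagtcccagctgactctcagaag

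The 4 windows held different sets of matches. In the *Nppa* window a T-box match on the opposite strand began 250 bases before the start site and an NKX2-5 match began 241 bases before it, only 2 bases past the end of the T-box match. The *Nppb* window held neither, but a TEAD match from -105 on the opposite strand and a GATA match from -84. *Cited1* and *Hopx* each had a CArG box, from -45 and -83. A TATA match lay at -9 in *Nppa*, -31 in *Nppb* and -13 in *Cited1*. The *Smpx* window (chrX:157698723-157699022) held 2 GATA matches, from -137 and -27, and none of the 5 windows held a MEF2 box. No match overlapped another. Among 32851 RefSeq promoters of the same length, 10.2% held the T-box motif, 11.5% the NKX2-5 motif, 11.2% the GATA motif, 14.7% the TEAD motif, 13.6% TATAAA, 1.63% a CArG box and 0.557% a MEF2 box. *Cited1* and *Hopx* have further RefSeq start sites, whose windows are not shown, and the *Nppb* start used here lies 112 bases from the one in the count tables. A match is a description of the letters and not evidence of binding.

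The 5 markers did not move together. *Nppa* and *Cited1* were lower in Tbx20EH1Mut hearts, *Hopx* was higher, and *Nppb* and *Smpx* did not pass the test. A gene was called where edgeR's quasi-likelihood test gave a Benjamini-Hochberg adjusted p of at most 0.05 over all genes tested and the log2 fold change was at least 0.5 in size. By that rule 2 of the 5 markers were called lower and 1 higher, where 12.1% of all tested genes were called lower, 12.5% higher and 24.6% in either direction. These shares stand for 2070 lower and 2148 higher genes, which became 1566 and 2516 with upper-quartile scaling, while the calls of the 5 markers stayed. In 2 of the 5 markers the libraries of the genotypes did not overlap, against 30.5% of all tested genes. Levels are given as normalised read counts (CPM), which set each count against the scaled size of its library. These are whole hearts, in which fewer cells of a type and less RNA per cell cannot be told apart.

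**Figure D1:**
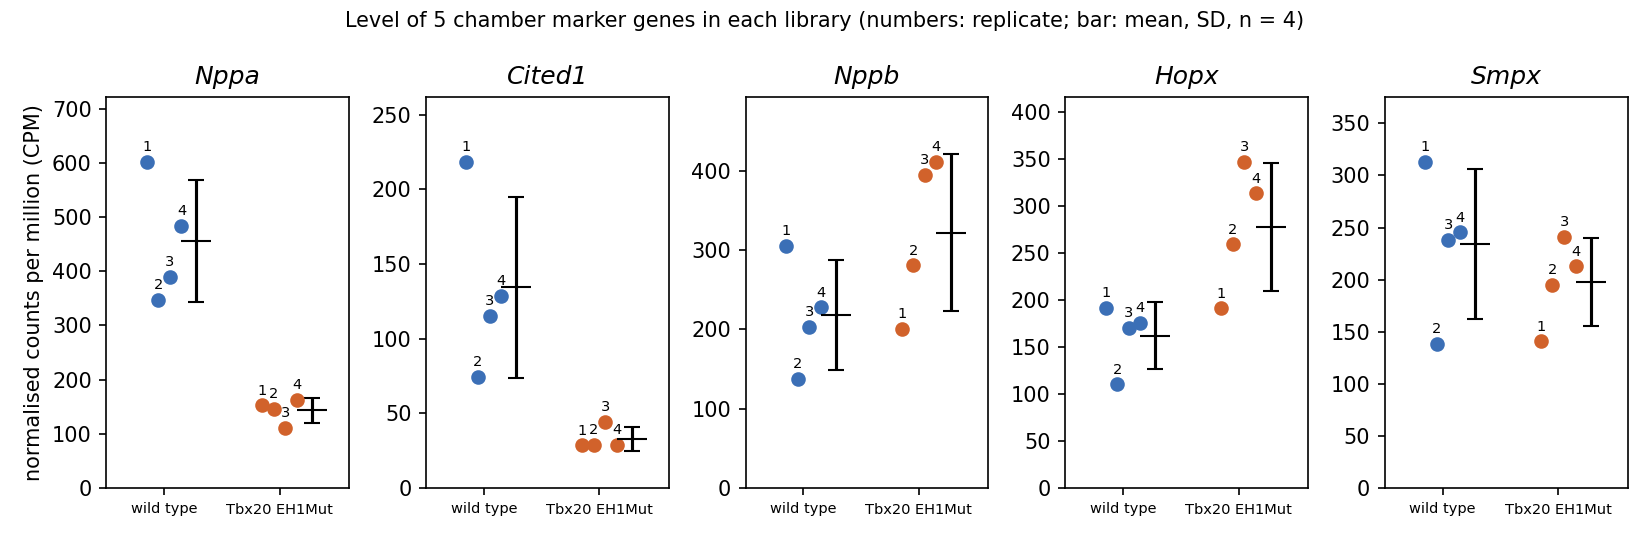
Level of each marker in each library, in CPM on an axis from 0, with the replicate number over each point and the mean and SD of 4 libraries beside the points. The Tbx20EH1Mut points lie below all wild-type points for *Nppa* and *Cited1*, above them for *Hopx* except in replicate 1 (191 CPM, against 192 CPM in wild-type replicate 1), and overlap with them for *Nppb* and *Smpx*.

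*Nppa*, the gene of atrial natriuretic peptide, was the most abundant marker in wild-type hearts and fell to 31.4% of the wild-type mean. Wild-type replicates 1 to 4 gave 602, 348, 390 and 484 CPM. In Tbx20EH1Mut replicates 1 to 4 it was 152, 146, 111 and 163 CPM. The genotypes were well apart, with the lowest wild-type library at 348 CPM and no Tbx20EH1Mut library over 163 CPM. The means were 456 ± 113 and 143 ± 22.7 CPM (SD, n = 4 each), and the fitted log2 fold change of -1.67 had a 95% interval from -2.10 to -1.25 (SE 0.192, adjusted p = 3.94e-04, edgeR). Exons of *Nppa* share 532 bases, 61.5% of their length, with the antisense gene *Gm13054*. That gene was also called lower (log2 fold change -1.27, adjusted p = 0.0196 from edgeR), from 8.04 ± 4.16 to 3.33 ± 0.651 CPM, and as the strand setting of the counting is not given, its reads cannot be told apart from those of *Nppa*.

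*Nppb*, its neighbour on chromosome 4 and the gene of B-type natriuretic peptide, did not fall with *Nppa*. Wild-type replicates 1 to 4 held 306, 138, 203 and 228 CPM. Tbx20EH1Mut replicates 1 to 4 held 201, 281, 395 and 412 CPM. The ranges overlapped, since Tbx20EH1Mut replicate 1 lay below 3 of the wild-type libraries and wild-type replicate 1 above 2 of the Tbx20EH1Mut libraries. The mean was 1.47 times the wild-type mean (219 ± 69.3 against 322 ± 99.5 CPM, SD, n = 4 each), and the log2 fold change was 0.56 with a 95% interval from -0.04 to 1.16 (adjusted p = 0.141 from edgeR). Without wild-type replicate 1 it was 0.76 and passed the test (adjusted p = 0.0457 from edgeR). With all 8 libraries it passed with the cardiomyocyte level as a term in the fit (0.80, adjusted p = 0.00904 from edgeR). It also passed with the foregut level as a term (1.34, adjusted p = 0.0203 from edgeR), but that level itself differed between the genotypes. Other settings lowered it without a call. It was 0.40 without wild-type replicate 2, 0.42 without Tbx20EH1Mut replicate 4, and 0.26 with an offset for exon length (adjusted p = 0.272, 0.328 and 0.382 from edgeR).

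Of the genes within 50 kb of this pair of hormone genes, *Clcn6* and *Plod1* moved little. *Clcn6*, which encodes a chloride transporter, had a log2 fold change of 0.02 and *Plod1*, a collagen lysyl hydroxylase, one of 0.03, with adjusted p values of 0.927 and 0.895 from edgeR. *2510039O18Rik* was lower by an amount just under the threshold (log2 fold change -0.50, adjusted p = 0.0127 from edgeR), at 69.3 ± 8.13 against 49.2 ± 4.34 CPM with no overlap.

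*Smpx*, the gene of the small cytoskeletal muscle protein, did not pass the test. It was counted at 313, 138, 238 and 245 CPM in wild-type replicates 1 to 4. In Tbx20EH1Mut replicates 1 to 4 the values were 141, 195, 241 and 213 CPM. All of the Tbx20EH1Mut libraries lay inside the wild-type range. The means were 234 ± 72.0 and 197 ± 42.1 CPM (SD, n = 4 each), and the log2 fold change was -0.24, with a 95% interval from -0.77 to 0.29 (adjusted p = 0.458 from edgeR). That interval holds both no change and a fall of 0.77 on the log2 scale. With the foregut marker level as a term the log2 fold change turned to 0.58, not called (adjusted p = 0.137 from edgeR). Leaving out 1 library moved it between -0.42 and -0.07.

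*Cited1*, the CBP and p300 co-activator, was down to 24.4% of the wild-type mean, the largest fold change of the 5 with genotype as the only term. Its wild-type values were 219, 74.6, 115 and 129 CPM in replicates 1 to 4. Tbx20EH1Mut replicates 1, 2 and 4 were nearly equal at 28.7, 28.9 and 29.0 CPM, and replicate 3 stood above them at 44.5 CPM. Even that library was below the lowest wild-type library. The means were 134 ± 60.7 and 32.8 ± 7.80 CPM (SD, n = 4 each), and the fitted log2 fold change was -2.04 with a 95% interval from -2.70 to -1.37 (SE 0.299, adjusted p = 0.00138, edgeR). Wild-type libraries varied most in this gene, with an SD of 45.2% of the mean against 22.0% for *Hopx*. With the foregut marker level as a term in the fit, the log2 fold change of *Cited1* was -1.08 (adjusted p = 0.0377 from edgeR), smaller in size than that of *Nppa* at -1.59.

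*Hopx*, the SRF-modulating homeodomain gene, moved the other way, to 1.71 times the wild-type mean. Wild-type replicates 1 to 4 had 192, 110, 171 and 176 CPM. Tbx20EH1Mut replicates 1 to 4 had 191, 259, 347 and 314 CPM. Replicate 1 of the Tbx20EH1Mut group fell just below wild-type replicate 1, and the other 3 lay above all wild-type libraries. The means were 162 ± 35.7 and 278 ± 68.0 CPM (SD, n = 4 each), and the log2 fold change was 0.78 with a 95% interval from 0.30 to 1.25 (SE 0.214, adjusted p = 0.0231, edgeR). An exact two-sided permutation test over the 70 arrangements of the libraries gave p = 0.0571 for *Hopx* alone. The call was lost when any one of wild-type replicates 3 and 4 or Tbx20EH1Mut replicates 3 and 4 was left out, with log2 fold changes of 0.80, 0.81, 0.66 and 0.71 (adjusted p = 0.0554, 0.0511, 0.0576 and 0.0690 from edgeR). It was also lost with Y-linked genes as a term (0.78) and without both wild-type replicates 1 and 2 (0.68, adjusted p = 0.0546 and 0.0559 from edgeR). With the foregut marker level as a term the log2 fold change was 1.45 and the call stayed (adjusted p = 0.0035 from edgeR). The antisense gene *Hopxos* shares 412 exon bases with *Hopx* (27.2%), but its 236 counts over all libraries stand against 68453 for *Hopx*.

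Per length of exon, the order of the markers differed between the genotypes. In wild-type hearts *Nppa* stood first at 527 ± 131 RPKM (CPM per kilobase of exon), and *Nppb* second at 280 ± 88.8 RPKM, each above the next gene in all 4 libraries. *Hopx* (107 ± 23.6 RPKM), *Smpx* (103 ± 31.7 RPKM) and *Cited1* (76.6 ± 34.6 RPKM) followed, with overlapping ranges between neighbours, although *Smpx* was above *Cited1* in each of the 4 libraries. In Tbx20EH1Mut hearts *Nppb* came first at 413 ± 127 RPKM. *Hopx* (183 ± 44.9 RPKM) and *Nppa* (165 ± 26.2 RPKM) overlapped behind it. *Smpx* at 86.8 ± 18.5 RPKM and *Cited1* at 18.7 ± 4.45 RPKM were each apart from their neighbours. The *Nppa* level, which in wild-type hearts was the highest, overlapped that of *Hopx* in Tbx20EH1Mut hearts.

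The ratio of 2 markers within a library does not depend on how the libraries were scaled, and shows whether they moved apart. The ratio of *Nppa* to *Nppb*, per length, was 1.78, 2.27, 1.73 and 1.92 in wild-type replicates 1 to 4. It was 0.685, 0.469, 0.253 and 0.358 in Tbx20EH1Mut replicates 1 to 4. *Nppa* was thus above *Nppb* in every wild-type library and below it in every Tbx20EH1Mut library, a log2 difference in the ratio of -2.21 (two-sided exact permutation p = 0.0286, which is as low as groups of 4 can give). All 10 pairs were compared, and 8 of them did not overlap between the genotypes, each with that same smallest exact p, which is 0.0357 after Benjamini-Hochberg adjustment over the 10 pairs. Among all pairs of tested genes, the log2 ratios of 28.9% did not overlap between the genotypes. The pairs of markers share members and are not independent of each other.

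The 2 pairs that overlapped were *Nppa* with *Cited1*, both called lower, and *Nppb*, which was not called, with *Hopx*. For *Nppa* to *Cited1* the log2 ratio was 2.86 ± 0.315 in wild-type and 3.16 ± 0.551 in Tbx20EH1Mut hearts (exact permutation p = 0.371, SD, n = 4 each). For *Nppb* to *Hopx* it was 1.36 ± 0.185 and 1.15 ± 0.142 (exact permutation p = 0.114, SD, n = 4 each). The largest shift was in *Cited1* to *Hopx*, from 0.986, 0.586, 0.584 and 0.633 in wild-type to 0.130, 0.0963, 0.111 and 0.0799 in Tbx20EH1Mut replicates 1 to 4, a log2 difference of -2.73. *Smpx* and *Hopx* have nearly equal levels in wild-type hearts. Their ratio was 1.09, 0.837, 0.931 and 0.929 in wild-type and 0.491, 0.501, 0.463 and 0.452 in Tbx20EH1Mut replicates 1 to 4, so that the log2 difference of -0.98 stood against SDs of 0.157 and 0.0704.

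**Figure D2:**
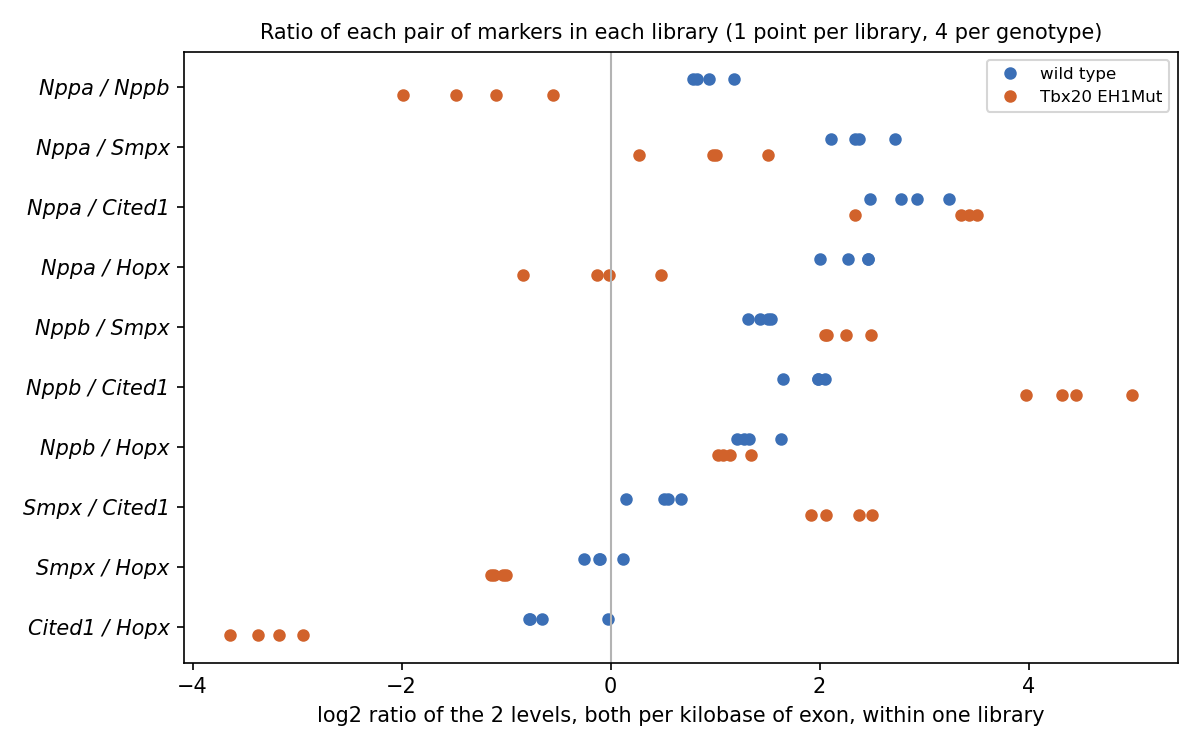
Log2 ratio of each of the 10 pairs of markers, both per kilobase of exon, with 1 point for each library and 4 for each genotype. The genotypes are apart in 8 pairs and overlap in *Nppa* to *Cited1* and *Nppb* to *Hopx*, and the ratio of *Nppa* to *Nppb* lies on opposite sides of 0.

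To set the markers against the amount of heart muscle RNA, each was divided by the geometric mean of 14 general cardiomyocyte genes such as *Tnnt2*, cardiac troponin T, and *Actc1*, cardiac actin. All 14 were tested, none was called higher (12.5% of all tested genes) and 2 were called lower (12.1% of all tested genes), *Actn2* (log2 fold change -0.52) and *Smyd1* (-0.72), and *Tnnt2* itself had means of 3898 ± 610 and 3970 ± 506 CPM in wild-type and Tbx20EH1Mut hearts (log2 fold change 0.03). All of these messages were thus present, as the label of the tissue asks. Relative to these genes the log2 difference was -1.55 for *Nppa*, -1.85 for *Cited1* and 0.88 for *Hopx*, without overlap of the genotypes (exact two-sided permutation test, p = 0.0286 each and 0.0476 after adjustment over the 5 markers). The difference was 0.66 for *Nppb*, with overlap (exact permutation p = 0.0571), and -0.11 for *Smpx* (exact permutation p = 0.714). With only the 3 cardiomyocyte genes that have under 3000 bases of exon as the reference, chosen after seeing the data, it was 0.39 for *Nppb* (exact permutation p = 0.0857) and -0.38 for *Smpx* (exact permutation p = 0.0571). For *Hopx* this ratio separated the genotypes, which its level in CPM did not.

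The markers also varied together among libraries of 1 genotype. In wild-type hearts replicate 1 was the highest and replicate 2 the lowest library for all 5 markers. Among Tbx20EH1Mut hearts *Nppb*, *Smpx*, *Hopx* and, by a small margin, *Cited1* were lowest in replicate 1, and *Nppa* was lowest in replicate 3, where *Smpx*, *Cited1* and *Hopx* were highest. The 2 wild-type libraries also stood apart by the length of the genes. The median of the 2906 tested genes with under 1500 bases of exon lay 0.33 above the wild-type mean in replicate 1 and 0.34 below it in replicate 2 on the log2 scale, and that of the 5598 genes with over 5000 bases lay 0.13 below and 0.21 above it. *Nppa* has 865 and *Nppb* 781 bases of exon, *Hopx* 1516, *Cited1* 1754 and *Smpx* 2275. Without both libraries, in a fit chosen after seeing the data, the log2 fold changes were -1.61 for *Nppa*, -1.90 for *Cited1*, 0.58 for *Nppb*, -0.29 for *Smpx* and 0.68 for *Hopx*, of which that of *Hopx* was no longer called (adjusted p = 0.0559 from edgeR). With an offset for exon length, also chosen after seeing the data, *Nppb* had a log2 fold change of 0.26 in place of 0.56 and the calls stayed as they were. The part of gene length in the spread of the markers was not tested.

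Markers of other cell types differed between the libraries as well. Foregut epithelium markers, which include *Epcam*, *Shh*, *Krt8* and *Krt18*, summed to between 190 and 288 CPM in wild-type and between 653 and 877 CPM in Tbx20EH1Mut hearts, and 5 of the 9 were called higher and none lower. Most of these sums were *Krt8* and *Krt18*, and the other 7 markers together spanned 1.12 to 54.9 CPM in wild-type and 30.6 to 191 CPM in Tbx20EH1Mut libraries, so that wild-type replicate 2 lay above Tbx20EH1Mut replicate 3. *Epcam*, a defining epithelial marker, ranged from 0.657 to 15.3 CPM in wild-type and from 10.7 to 75.4 CPM in Tbx20EH1Mut libraries. Of the other lists, 4 of 8 endothelial, 2 of 6 hepatic and visceral endoderm, 2 of 4 neural tube, 1 of 4 neural crest and 1 of 4 somite markers were called higher, 6 of 7 erythroid markers lower, and 1 of 6 proepicardial markers in each direction, where 12.5% of all tested genes were called higher and 12.1% lower. The endoderm markers summed to 1.67 to 10.6 CPM in wild-type and 5.88 to 165 CPM in Tbx20EH1Mut libraries. The foregut marker level used as a term in the fit was the mean log2 CPM of the 9 foregut markers. As 5 of these were called higher, the term is partly confounded with genotype, and the fit cannot cleanly separate the 2. With this term *Nppa* stood at -1.59, *Cited1* at -1.08, *Nppb* at 1.34, *Hopx* at 1.45 and *Smpx* at 0.58 on the log2 scale. *Nppa*, *Cited1* and *Hopx* kept their calls, *Nppb* was called higher (adjusted p = 0.0203 from edgeR) and *Smpx* turned its sign without passing the test (adjusted p = 0.137 from edgeR). *Xist*, expressed from the inactive X chromosome of female cells, had 34.6, 0.102, 0.618 and 74.4 CPM in wild-type and 235, 0.850, 132 and 239 CPM in Tbx20EH1Mut replicates 1 to 4. In wild-type hearts all 5 markers, X-linked or autosomal, were highest in replicate 1, followed by 4, 3 and 2. The libraries with *Xist* thus lay above those nearly without it for each marker, and not for X-linked *Cited1* and *Smpx* alone. In Tbx20EH1Mut replicates 1 to 4 *Cited1* was at 28.7, 28.9, 44.5 and 29.0 CPM. The part of the other cells and of embryo sex in these results was not tested further.

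Around the 5 markers, 51 other genes of the chamber programme were listed in 5 groups, of which 50 were tested. Of these 12 (24%) were called higher and 9 (18%) lower, against 12.5% and 12.1% of all tested genes, and their median log2 fold change was -0.10 against 0.0048 over all genes. The number called higher was 7 without wild-type replicate 3 and also without Tbx20EH1Mut replicate 4.

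**Figure D3:**
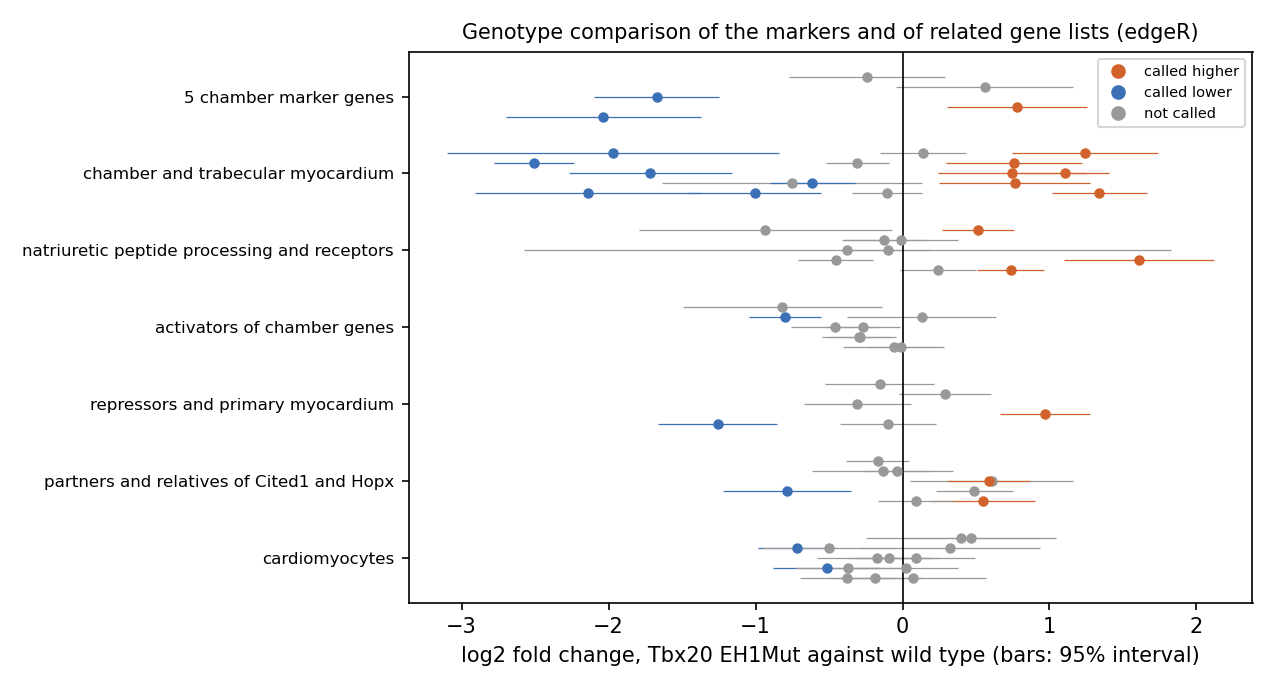
Log2 fold change with its 95% interval from edgeR for the 5 markers, the 5 related lists and the general cardiomyocyte genes, where each point is 1 gene, coloured by its call. Calls in both directions appear among the 5 markers and in 3 of the related lists, and in 1 direction only among the natriuretic peptide, activator and cardiomyocyte genes.

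Of the 16 genes of chamber and trabecular myocardium 6 were called higher and 6 lower, against 12.5% and 12.1% of all tested genes. The remaining 4 were not called. Among the lower ones *Gja5*, the fast gap junction protein connexin 40, went from 58.4 ± 16.1 to 17.8 ± 5.32 CPM (log2 fold change -1.72), *Hand1*, a factor of the left ventricle and outer curvature, had a log2 fold change of -2.51, and *Irx4*, the ventricular Iroquois factor, one of -0.62. *Mybphl*, a myosin-binding protein (-1.01), *Tnni2*, a troponin I (-2.14), and *Slc8a1*, the sodium-calcium exchanger (-1.97), were lower as well. Wild-type *Slc8a1* spanned 47.1 CPM in replicate 1 to 357 CPM in replicate 2, and the genotypes overlapped. Among the higher ones *Irx3* and *Irx5*, relatives of *Irx4*, went from 32.3 ± 6.11 to 81.6 ± 7.20 CPM and from 25.7 ± 3.78 to 55.2 ± 6.23 CPM (log2 fold changes 1.34 and 1.10). *Myl2*, the ventricular myosin light chain, had a log2 fold change of 0.76 with overlap, *Pln*, the inhibitor of the calcium pump, one of 0.74, *Kcne1*, a potassium channel subunit, one of 0.76, and *Mpped2* one of 1.24. *Bmp10*, the trabecular growth factor, was not called at 75.9 ± 7.48 and 70.6 ± 5.03 CPM (log2 fold change -0.11). Each call in this paragraph had an adjusted p between 5.77e-06 (*Hand1*) and 0.0341 (*Pln*) from edgeR.

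Of the genes that process or receive natriuretic peptides, 10 of 11 were tested and 3 were called higher, none lower, against 12.5% and 12.1% of all tested genes. *Corin*, the protease that cuts the atrial peptide from its precursor, had 21.9, 19.3, 21.2 and 20.8 CPM in wild-type and 34.4, 33.2, 32.6 and 38.0 CPM in Tbx20EH1Mut replicates 1 to 4 (log2 fold change 0.73, adjusted p = 0.00112 from edgeR). While the level of *Nppa* was thus lower, that of its protease was higher in all 4 Tbx20EH1Mut libraries than in any wild-type library. *Pcsk6*, a protease that activates corin, was higher too, with 16.0 ± 6.02 against 48.9 ± 5.69 CPM (log2 fold change 1.61, adjusted p = 0.00124), as was *Npr2*, the receptor of the C-type peptide (log2 fold change 0.51, adjusted p = 0.00861, both from edgeR). *Npr1*, the receptor of the atrial and B-type peptides, did not pass the test, at 23.4 ± 2.45 and 21.5 ± 2.71 CPM (log2 fold change -0.12, adjusted p = 0.483 from edgeR). *Furin*, which can cut the B-type precursor, had a log2 fold change of -0.46, under the threshold (adjusted p = 0.0157 from edgeR). *Nppc*, the gene of the C-type peptide itself, had too few counts to be tested.

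Among 9 activators of chamber genes none was called higher and 1 lower, near the 12.1% of all tested genes called lower. That was *Tbx5*, a T-box activator of *Nppa*, with 98.1, 108, 104 and 98.6 CPM in wild-type and 53.5, 52.3, 66.9 and 61.9 CPM in Tbx20EH1Mut replicates 1 to 4 (log2 fold change -0.80, adjusted p = 9.92e-04 from edgeR). *Nkx2-5*, its partner factor, was at 489 ± 56.1 and 469 ± 87.8 CPM (log2 fold change -0.06). *Tbx20* itself had a log2 fold change of -0.46, below the threshold in size though without overlap (adjusted p = 0.0273 from edgeR), and the substituted codons cannot be seen in counts per gene. *Hand2* and *Srf* were also below all wild-type libraries, with log2 fold changes of -0.29 and -0.30 (adjusted p = 0.0437 and 0.0706 from edgeR). Such separation was thus seen in 4 of the 9 activators, against 15.7% of all tested genes, and the median log2 fold change of the list was -0.29. The repressors of chamber genes *Tbx2* and *Tbx3* were not called, with log2 fold changes of 0.29 and -0.16. In the same list of 6, *Hey1*, a Notch target and transcriptional repressor, was called higher (58.2 ± 9.70 to 114 ± 10.5 CPM, log2 fold change 0.97) and *Bmp2*, the atrioventricular canal ligand upstream of *Tbx2*, lower (60.0 ± 7.27 to 25.1 ± 6.59 CPM, log2 fold change -1.26). Over all tested genes 12.5% were called higher and 12.1% lower.

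Of the 9 relatives and partners of *Cited1* and *Hopx*, 2 were called higher and 1 lower, against 12.5% and 12.1% of all tested genes. The other 6 were not called. *Cited2* was called higher, with 177 ± 14.1 against 259 ± 58.3 CPM (log2 fold change 0.55, adjusted p = 0.0281 from edgeR), and *Cited4* lower, with 32.7 ± 7.60 against 19.0 ± 3.76 CPM (log2 fold change -0.78, adjusted p = 0.0156 from edgeR). Of these 3 family members *Cited1* and *Cited4* were thus lower and *Cited2* higher. *Smad4*, the common partner of BMP and TGF-beta signalling with which *Cited1* acts, was also called higher (log2 fold change 0.59). *Smad1*, of the same list, had a log2 fold change of 0.49, under the threshold though without overlap (adjusted p = 0.0131 from edgeR). *Crebbp* and *Ep300*, which encode the CBP and p300 that *Cited1* binds, and *Hdac1* and *Hdac2*, the deacetylases that *Hopx* recruits, were not called, with log2 fold changes of 0.61, -0.14, -0.17 and 0.09.

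For each marker the 3 genes with the most similar profile over the 8 libraries were found among the 10534 tested genes that averaged 5 CPM or more, by the root mean square (RMS) difference of log2 CPM after centring on the wild-type mean. Since this profile includes the difference between the genotypes, the calls of these genes largely follow from how they were picked. *Hopx* had the closest neighbours, *Xrcc4*, a DNA repair factor (RMS 0.0671), *Ankra2* (0.0838) and *Fhl2*, a LIM protein of heart muscle (0.0900), all of them called higher. *Smpx* was nearest to *Tesc* (0.0950), *Atp5g3*, a subunit of the mitochondrial ATP synthase (0.112), and *Glrx5*, a mitochondrial glutaredoxin (0.124), none of them called. Those of *Nppb* were *Churc1* (0.139), *Snhg15* (0.143) and *Lgals1*, galectin-1 (0.152), also not called, and *Hopx* itself was at 0.209 from *Nppb*. The most similar genes to *Nppa* were *Kcnh7*, a potassium channel (0.203), *Mab21l2* (0.228) and *Tnnt3*, fast troponin T (0.249). For *Cited1* they were *Rspo3*, a Wnt agonist (0.231), *Tnni2* (0.264) and *Lyz2* (0.316). Each of these 6 was called lower, and all of them were far less abundant than *Nppa*, *Kcnh7* for one at 17.7 ± 2.66 and 6.23 ± 1.59 CPM. *Nppa* and *Cited1*, the 2 markers that fell, differed from each other by an RMS of 0.442.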

How the data were processed

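RNA-seq was analysed from 8 libraries of whole hearts, 4 per genotype, with genotype and replicate number taken from the labels. The authors deposited 1 table per library of raw counts, whole numbers of reads per Ensembl gene with no normalization. The submitters' processing notes name Trimmomatic 0.36, STAR 2.5.2b and the build GRCm38 (mm10); the counting tool and its strand setting are not given in the sources used here, so overlapping genes are uncertain. Symbols came from GENCODE M21, matched by identifier for 48970 of the 49315 genes, and 91.4% of the genes in that annotation had the same start and end. The 5 markers, the gene lists and the rules for named genes were chosen with earlier results of these data known. Any 2 libraries of the same genotype differed beyond sampling noise, and p-values measure only the spread between such pools.

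Counts were filtered with filterByExpr, scaled by TMM and fitted with glmQLFit and glmQLFTest of edgeR 4.0.16 (limma 3.58.1, R 4.3.3), genotype being the only term, and p-values were adjusted by Benjamini-Hochberg over 17163 genes. The steps were tested on simulated data. RPKM used the exon length listed in the tables. Single values and ratios were compared by exact two-sided permutation tests over every arrangement of the libraries, whose smallest p for 4 libraries against 4 is 0.0286. These were written in Python 3.11.15 with numpy 2.4.6 and pandas 2.3.3. The comparison of libraries of the same genotype used scipy 1.17.1, and the plots matplotlib 3.10.9. The named genes were the 5 markers, any gene of the fixed lists, the 3 genes closest in profile to each marker, and genes within 50 kb of the *Nppb* to *Nppa* interval or overlapping exons of a marker, some of which are not reported here.

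Alternatives were DESeq2 1.42.0, limma-voom, scaling by RLE, by the upper quartile or by library size alone, no filter but 1 count, at least 10 counts in every library, the replicate number as a block, the level of foregut, Y-linked or cardiomyocyte genes as a term, other forms of the cardiomyocyte reference, and leaving out each library. Chosen after seeing the data were the exon length offset (loess, span 0.3), cardiomyocyte genes with exons under 3000 bases, and leaving out wild-type replicates 1 and 2. Promoters are from RefSeq's annotation of GRCm38.p6, and all 5 markers matched it by symbol. Binding data, other assays of the study and protein sequences were not analysed here.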

Additional observations from a re-analysis of the deposited data

Results flagged for a closer look

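*Cited1* in Tbx20EH1Mut replicate 3 stood apart from the other libraries of its group, at 44.5 CPM against 28.7 to 29.0 CPM in replicates 1, 2 and 4. The gap to the nearest library made up 0.981 of the range of the group, past the limit of Dixon's test at the 95% level. The 5 markers in 2 genotypes gave 10 groups of 4 libraries, and chance alone marks about 1 in 20 groups. In the same library the short-exon genes lay 0.16 above the mean of the genotype on the log2 scale, the highest of the Tbx20EH1Mut libraries, and *Smpx* and *Hopx* were also at their highest. Without this library the log2 fold change of *Cited1* was -2.22 (adjusted p = 0.00213 from edgeR).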

How the results depend on the processing

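*Nppa* and *Cited1* kept their direction and call in all 13 other settings and in all 8 fits that left out a library. Their log2 fold changes ranged from -1.96 to -1.59 and from -2.17 to -1.08 over the settings, and from -1.77 to -1.51 and from -2.23 to -1.70 with a library left out. *Hopx* kept its direction throughout but lost its call with Y-linked genes as a term (0.78, adjusted p = 0.0546), without both wild-type replicates 1 and 2 (0.68) and in 4 of the 8 fits that left out a library (range 0.64 to 0.93). *Nppb* was called with the cardiomyocyte level (0.80) or the foregut level (1.34) as a term and without wild-type replicate 1 (range 0.40 to 0.76 over the 8 fits). *Smpx* reversed to 0.58 with the foregut level as a term, was not called in any fit, and ranged from -0.42 to -0.07 with a library left out. The foregut level differed between the genotypes, so a fit with it as a term cannot cleanly separate the 2. All these adjusted p values are from edgeR, and the cause of these shifts was not tested.

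Leaving out a library moved the number of genes called higher between 1375 (without wild-type replicate 3) and 2948 (without wild-type replicate 1), where the full set gave 2148, and the number called lower between 1376 (without Tbx20EH1Mut replicate 4) and 2719, where it gave 2070. Genes of the chamber programme called higher lay between 7 and 14, and those called lower between 8 and 12. The lowest count of 7 was found without wild-type replicate 3 and without Tbx20EH1Mut replicate 4. Upper-quartile scaling moved the median of all genes to 0.089 and gave 2516 higher against 1566 lower genes, and library size alone gave 1859 against 2248. Relative to cardiomyocyte genes, *Smpx* lay between -0.31 (without wild-type replicate 2) and 0.039 (without wild-type replicate 1) with a library left out. Without wild-type replicate 2 it was called lower (exact permutation p = 0.0286, and 0.0357 after adjustment), which it was not with all libraries. It was -0.38 against the 3 short-exon cardiomyocyte genes (exact permutation p = 0.0571), while *Nppa* (-1.82), *Cited1* (-2.12) and *Hopx* (0.61) kept their calls against these.

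Deviations of same-numbered libraries from the means of their genotypes had correlations of -0.268, 0.338, 0.0601 and 0.0599. Over all pairings of a wild-type with a Tbx20EH1Mut library they ran from -0.424 to 0.412. Whether the numbers pair the libraries is not given, and such correlations cannot settle it. With the replicate block in edgeR the log2 fold changes were -1.66 for *Nppa*, -1.95 for *Cited1*, 0.78 for *Hopx*, 0.57 for *Nppb* and -0.21 for *Smpx*, with no call changed. The exact sign-flip test over replicate numbers as a block cannot go below p = 0.125, so it could call none of the ratios, whose values it leaves as they were. These are *Nppa* -1.55, *Cited1* -1.85 and *Hopx* 0.88 relative to cardiomyocyte genes, and, for pairs, *Nppa* to *Nppb* -2.21, *Nppa* to *Smpx* -1.44, *Nppa* to *Hopx* -2.43, *Nppb* to *Smpx* 0.77, *Nppb* to *Cited1* 2.51, *Smpx* to *Cited1* 1.74, *Smpx* to *Hopx* -0.98 and *Cited1* to *Hopx* -2.73. Each marker had at least 1088 counts in every library, so that the spread between pools and not counting limits the precision.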
